A study of Mus musculus with 24 samples.

Results

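The levels of 10 RNAs that mark mature neutrophils and their granules were followed through 24 bulk RNA sequencing libraries of sorted mouse bone marrow stem and progenitor cells. The 10 genes, out of 27179 in the deposited count table, were taken by symbol: S100a8, S100a9, Ngp, Camp, Ltf, Lcn2, Chil3, Mmp9, Cxcr2 and Retnlg. All 10 were found and all 10 passed the low count filter in every comparison. From 4 litters, 8 mice were used, 1 mouse with Phf6 deleted and 1 control mouse in each litter, and each mouse gave 1 library of haematopoietic stem cells (HSC), 1 of multipotent progenitors (MPP) and 1 of HPC-1, a more restricted progenitor. There were thus 4 deleted and 4 control libraries in each of the 3 populations. The strain is given as Phf6lox/Y;Tie2-creTg/+ for deleted and control mice alike, a floxed X-linked Phf6 allele with a Cre transgene whose Tie2 promoter is active in endothelial and blood-forming cells. Whether controls had the transgene is therefore not stated in the labels, nor is the age of the mice. PHF6 is a chromatin-associated nuclear protein.

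Before sorting, marrow cells bearing CD3, B220, GR1 or TER119 were depleted with antibody-coated beads, and the populations were then sorted on cKIT, SCA1, CD150 and CD48. GR1 antibodies bind neutrophils. Libraries of HSC and MPP were made with the SMART-Seq low-input kit and those of HPC-1 with a TruSeq stranded kit, so a difference in level between HPC-1 and the other populations cannot be told apart from the kit and is not tested here. The libraries held between 9658167 and 27786830 counted reads. Phf6 itself was lower in every deleted library than in any control library of the same population, with a log2 fold change of -1.95 ± 0.22 for HSC, -1.82 ± 0.18 for MPP and -2.08 ± 0.16 for HPC-1 (SE, edgeR quasi-likelihood test, adjusted p = 0.0211, 0.00432 and 3.29e-05). One library was unlike its group in composition, that of MPP from deleted mouse 3, with 9.34% of its reads in its 10 most abundant genes against 2.95% to 5.08% in the other MPP libraries. Mice are named here by genotype and litter, so deleted mouse 4 and control mouse 4 were littermates.

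Neutrophils pack their antimicrobial proteins into granules that form one after another as the cell matures. Primary granules hold myeloperoxidase and the serine proteases, and are filled in early precursors. Secondary granules, which hold lactoferrin, cathelicidin and NGP, and then gelatinase granules, which hold MMP9, are filled later, while the calprotectin subunits S100A8 and S100A9 accumulate in the cytosol. Transcription of the later genes in mice needs factors of the C/EBP family, among them C/EBP epsilon. Stem and multipotent progenitor cells are not known for making these late proteins.

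The promoters of 5 of the genes are shown because the 10 RNAs moved together across the libraries and because these 5 span the calprotectin pair and a chromosome 9 group. Each line gives the 150 bases before the annotated transcription start, 5′ to 3′ on the gene's strand, from RefSeq on GRCm38.p6. Capitals mark matches to a loose C/EBP core, TTNNGNAA, on either strand.
Ngp (chr9:110419658-110419807, plus strand): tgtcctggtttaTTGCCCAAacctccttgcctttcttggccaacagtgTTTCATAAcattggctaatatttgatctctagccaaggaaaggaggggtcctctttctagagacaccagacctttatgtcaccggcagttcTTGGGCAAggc
Ltf (chr9:111019142-111019291, plus strand): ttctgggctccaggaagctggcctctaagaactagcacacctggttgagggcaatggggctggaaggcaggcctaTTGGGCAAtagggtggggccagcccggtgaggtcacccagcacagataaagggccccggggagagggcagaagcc
S100a8 (chr3:90668921-90669070, plus strand): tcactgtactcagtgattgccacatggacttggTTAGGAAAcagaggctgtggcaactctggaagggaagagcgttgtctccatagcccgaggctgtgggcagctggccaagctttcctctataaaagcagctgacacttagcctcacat
S100a9 (chr3:90695722-90695871, minus strand): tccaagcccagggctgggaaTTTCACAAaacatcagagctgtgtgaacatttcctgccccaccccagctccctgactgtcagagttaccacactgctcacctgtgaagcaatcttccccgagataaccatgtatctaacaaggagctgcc
Camp (chr9:109849457-109849606, minus strand): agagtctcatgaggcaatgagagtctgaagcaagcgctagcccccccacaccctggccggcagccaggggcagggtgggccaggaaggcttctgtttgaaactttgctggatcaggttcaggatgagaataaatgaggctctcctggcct

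Ngp held 3 such matches in this window, Ltf, S100a8 and S100a9 held 1 each, and the Camp window held none. Over the longer window of 250 bases before the start, 7 of the 9 promoters found for the 10 genes held the core, as did 36.8% of 32851 promoters in the same table. A PU.1 core, GAGGAA on either strand, which is not capitalised above and can lie inside a C/EBP core match but did not in these promoters, lay in 4 of the 9 promoters and in 23.3% of all promoters. PU.1 is a transcription factor of myeloid and B cells. These matches are descriptions of letters and say nothing of binding.

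S100a8 (chr3:90669071-90670034) and S100a9 (chr3:90692630-90695721) are neighbours on chromosome 3, 22595 bases apart with 0 annotated genes between them. Camp, Ngp and Ltf lie along chromosome 9 at chr9:109847377-109849456, chr9:110419808-110423012 and chr9:111019292-111042766. There are 18 annotated genes between Camp and Ngp and 25 between Ngp and Ltf. Lcn2 and Mmp9 are on chromosome 2, Chil3 on chromosome 3, Cxcr2 on chromosome 1 and Retnlg on chromosome 16. No annotated gene overlapped any of the 10. Over all 24 libraries their paralogs had 5807 reads for Chil1, 356 for Chil4, 19 for Retnla and 5 for Retnlb.

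Per length, the calprotectin RNAs were the most abundant of the 10 in every population. In HSC the mean level of S100a8 was 3730 ± 2283 RPKM and that of S100a9 was 1578 ± 1130 RPKM (SD, n = 8 libraries, both genotypes together). S100a8 exceeded S100a9 in 8 of 8 HSC libraries, and S100a9 exceeded Ngp in 8 of 8. Ngp, a cathelicidin-related secondary granule protein, followed at 693 ± 589 RPKM and Camp, the precursor of the antimicrobial peptide cathelicidin, at 440 ± 286 RPKM, with Ngp above Camp in 6 of 8 libraries.

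The middle of the HSC order held Chil3, a chitinase-like secreted protein, at 224 ± 170 RPKM, Lcn2, a siderophore-binding protein, at 195 ± 188 RPKM, Retnlg, a resistin-like secreted protein, at 152 ± 154 RPKM, and Ltf, the iron-binding lactoferrin, at 124 ± 133 RPKM (SD, n = 8). These neighbours were not separated in every library, with Chil3 above Lcn2 in 5 of 8 and Retnlg above Ltf in 6 of 8. Mmp9, the gelatinase of the last granules to form, was at 22.8 ± 30.7 RPKM and Cxcr2, the chemokine receptor of mature neutrophils, at 3.3 ± 3.43 RPKM, and that order held in 8 of 8 libraries.

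MPP libraries kept the same first 5 places, from S100a8 at 3395 ± 3855 RPKM to Chil3 at 189 ± 235 RPKM (SD, n = 8). HPC-1 libraries had S100a9 first at 689 ± 483 RPKM and S100a8 second at 413 ± 283 RPKM, in 8 of 8 libraries. Cxcr2 was last in all 3 populations, at 1.49 ± 2.21 RPKM in MPP and 2.97 ± 1.68 RPKM in HPC-1.

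The levels of all these RNAs differed far more between mice than most genes did. On the CPM scale, the read count scaled to library size, S100a8 stood at 1508, 1496, 467 and 2761 in HSC of deleted mice 1 to 4, against 2619, 1241, 223 and 1384 in HSC of control mice 1 to 4. In MPP it stood at 1287, 733, 663 and 4967 CPM in deleted mice and 973, 988, 74.9 and 961 CPM in control mice. In HPC-1 it stood at 167, 203, 46.3 and 399 CPM in deleted mice and 126, 180, 55.3 and 118 CPM in control mice. Deleted mouse 4 was highest in each population, both mice of litter 3 were lowest, and the deleted and control groups overlapped throughout.

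Ngp followed the same mice. It was at 607, 866, 229 and 2148 CPM in deleted HSC, against 1458, 552, 106 and 469 CPM in control HSC. In MPP it was at 564, 260, 203 and 2659 CPM in deleted mice, against 364, 420, 38.9 and 362 CPM in controls, and in HPC-1 at 174, 218, 59.5 and 520 CPM in deleted mice, against 177, 276, 93.2 and 183 CPM in controls. In MPP deleted mouse 4 lay far above every other library, deleted mouse 1 was also above the controls, and deleted mice 2 and 3 lay within the control range.

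Mmp9 RNA was highest in the same animal, deleted mouse 4, in each population. It was at 48.2, 42.7, 9.06 and 300 CPM in deleted HSC, against 80.5, 69.3, 3.74 and 19.4 CPM in control HSC. In MPP it was at 18.9, 15.3, 5.18 and 225 CPM in deleted mice, against 24.9, 58.0, 4.15 and 25.2 CPM in controls, and in HPC-1 at 6.07, 10.8, 7.0 and 92.1 CPM in deleted mice, against 17.9, 38.1, 10.2 and 9.51 CPM in controls. Only deleted mouse 4 exceeded every control library of its population for this gene.

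Cxcr2 was the scarcest of the 10 per length. HSC values were 13.6, 4.77, 6.22 and 34.1 CPM in deleted mice, against 10.5, 6.37, 2.13 and 2.71 CPM in controls. MPP values were 3.96, 1.38, 0 and 20.7 CPM in deleted mice and 3.67, 4.58, 0.41 and 1.69 CPM in controls. In HPC-1 it was at 3.95, 8.41, 6.76 and 20.6 CPM in deleted mice, against 10.8, 8.93, 5.88 and 7.0 CPM in controls. It had 0 reads in MPP of deleted mouse 3, and in HPC-1 the other 3 deleted mice lay within or below the control range.

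**Figure D1:**
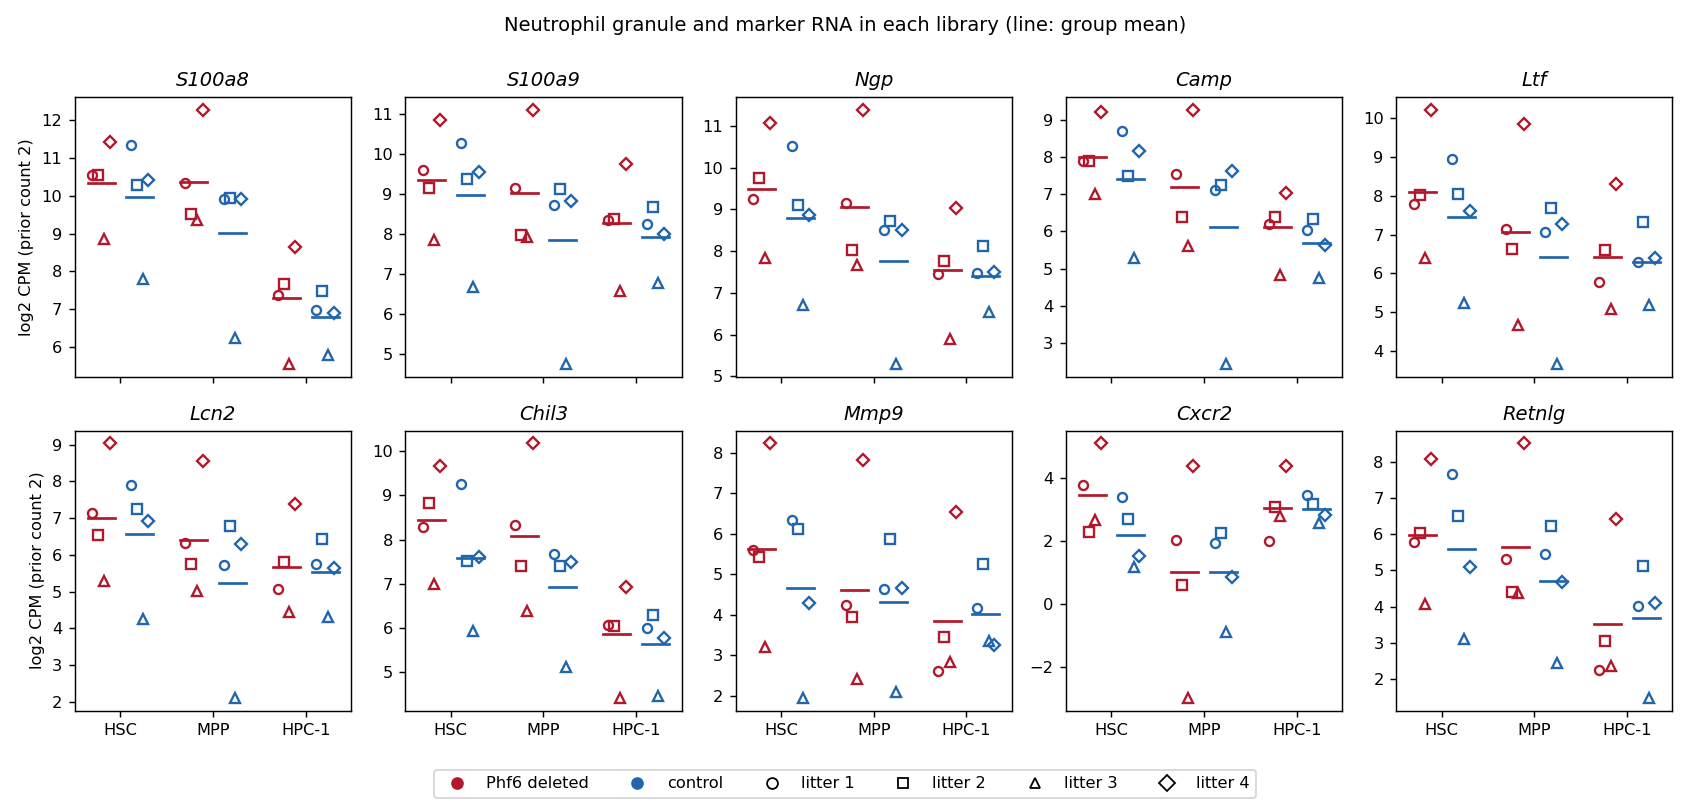
Each panel plots 1 gene, with log2 CPM (prior count 2) on the vertical axis and the 3 populations along the horizontal axis, deleted libraries in red to the left of control libraries in blue, 1 symbol per litter and a line at each group mean. In every panel and population the red diamond of deleted mouse 4 is the highest point, and the triangles of litter 3 are the 2 lowest points in most panels and populations, with exceptions such as Cxcr2 in HSC and Mmp9 in HPC-1.

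Added up, the 10 RNAs made 3914, 4089, 1336 and 10443 CPM in HSC of deleted mice 1 to 4, against 7367, 3401, 600 and 3454 CPM in HSC of control mice 1 to 4. In MPP the sums were 3208, 1687, 1323 and 13485 CPM in deleted mice, against 2360, 2737, 207 and 2435 CPM in controls. In HPC-1 they were 913, 1080, 326 and 2704 CPM in deleted mice, against 913, 1352, 383 and 831 CPM in controls. The highest library exceeded the lowest 17.4-fold among HSC libraries, 65.2-fold among MPP and 8.3-fold among HPC-1. In MPP of deleted mouse 4, S100a8 reached 12671 RPKM and ranked first of all genes by RPKM. These are bulk libraries, so more cells of a type and more RNA per cell cannot be told apart.

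The order of the mice was shared between populations at its ends. Deleted mouse 4 was highest for 10 of 10 genes in each of the 3 populations. Control mouse 3 was lowest for 10 of 10 genes in HSC and 9 of 10 in MPP, where Cxcr2 was lowest in deleted mouse 3. In HPC-1 deleted mouse 3 was lowest for 5 genes (S100a8, S100a9, Ngp, Ltf and Chil3), control mouse 3 for 3 (Camp, Lcn2 and Retnlg) and deleted mouse 1 for Mmp9 and Cxcr2. By the mean of the 10 centred log2 values, the mice of litter 3 ranked 7 and 8 of 8 in each population. The middle ranks did not hold between populations, control mouse 1 for example ranking 2 of 8 in HSC and 4 of 8 in MPP.

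**Figure D2:**
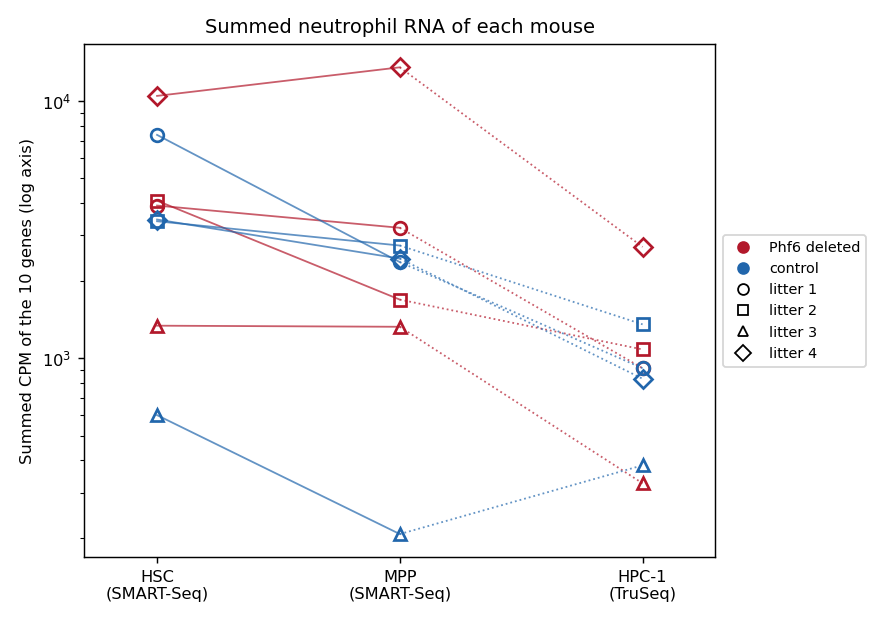
The summed CPM of the 10 genes (log axis) is drawn for each of the 8 mice in the 3 populations, deleted mice in red and control mice in blue, with solid lines joining the 2 populations made with 1 kit and dotted lines leading to HPC-1, made with another. Deleted mouse 4 lies at 10443, 13485 and 2704 CPM, and control mouse 3 at 600, 207 and 383 CPM.

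Within a group of 4 mice, the SD of the log2 CPM was 1.16 (Cxcr2) to 2.05 (Mmp9) for the 10 genes in HSC and 1.43 (Chil3) to 2.4 (Cxcr2) in MPP. The median gene had an SD of 0.39 in both populations. These SDs placed the 10 genes between the 88.2 and 97.3 percentiles of all genes tested in HSC, between 96.4 and 99.8 in MPP and between 85.8 and 98.1 in HPC-1. The top SD in MPP, that of Cxcr2, rests in part on 0 reads in deleted mouse 3. There the prior count set the log2 CPM (-2.98). Camp came next in MPP, with an SD of 2.07 at the 99.5 percentile. The median gene of HPC-1 had an SD of 0.23. Group means for these genes were accordingly imprecise, the summed level being 4946 ± 3875 CPM in deleted HSC and 3705 ± 2781 CPM in control HSC, 4926 ± 5764 CPM in deleted MPP and 1935 ± 1164 CPM in control MPP, and 1256 ± 1018 CPM in deleted HPC-1 and 870 ± 397 CPM in control HPC-1 (SD, n = 4 each).

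The calprotectin RNAs kept nearly fixed proportions within a population while their levels swung. The ratio of S100a9 to S100a8, whose proteins form the calprotectin heterodimer, ran from 0.383 to 0.663 in HSC, a 1.73-fold range, while S100a8 itself spanned 12.4-fold. In MPP the ratio ran from 0.342 to 0.562 and S100a8 spanned 66.3-fold. In HPC-1 it ran from 1.63 to 2.4 and S100a8 spanned 8.61-fold. The HPC-1 ratios lay above every HSC and MPP ratio, a difference that cannot be told apart from the change of kit.

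**Figure D3:**
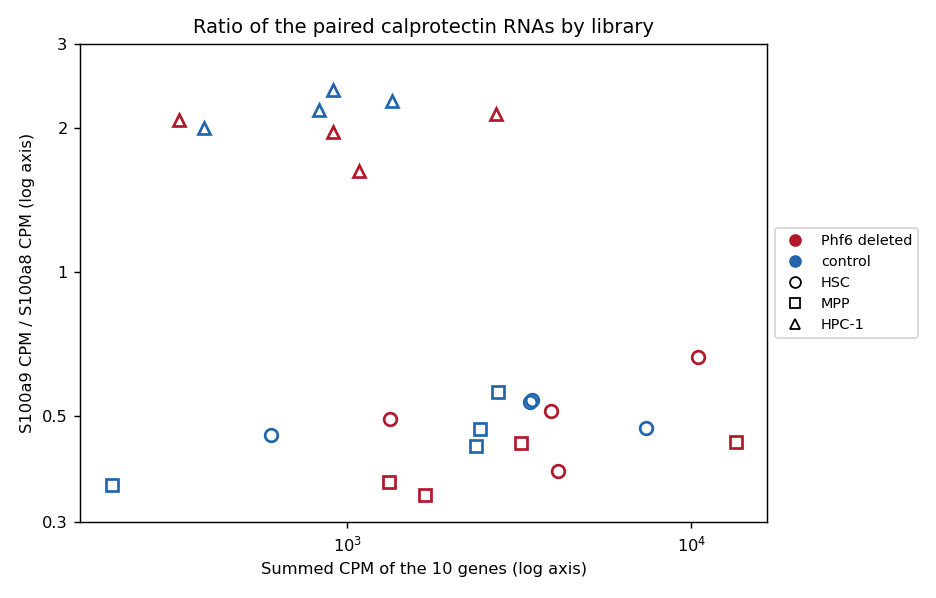
Each point is 1 library, with the summed CPM of the 10 genes on the horizontal log axis and the ratio of S100a9 CPM to S100a8 CPM on the vertical log axis, red for deleted and blue for control, the symbol giving the population. HSC and MPP points lie between 0.342 and 0.663 at any sum, and HPC-1 points between 1.63 and 2.4.

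Other RNAs of the 10 were set against Ngp. Ltf ran from 0.298 to 0.548 of the Ngp CPM among HSC libraries, 0.125 to 0.486 among MPP and 0.313 to 0.604 among HPC-1. Chil3 ran from 0.331 to 0.572 of Ngp among HSC libraries, 0.404 to 0.880 among MPP and 0.234 to 0.384 among HPC-1. Camp ran from 0.271 to 0.614 of Ngp among HSC libraries, 0.136 to 0.543 among MPP and 0.253 to 0.473 among HPC-1. Mmp9 spanned 3.95-fold relative to Ngp for HSC, 5.42-fold for MPP and 5.09-fold for HPC-1. Retnlg spanned 2.28-fold, 2.56-fold and 6.03-fold in the same order. Mmp9 reached its highest ratio to Ngp in HSC and HPC-1 in deleted mouse 4.

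Over the 24 libraries, centred on each population, Pearson's r between pairs of the 10 genes ran from 0.66 to 0.99 with a median of 0.92 over 45 pairs. The median was 0.94 within HSC, 0.93 within MPP and 0.89 within HPC-1 (n = 8 libraries each). Ltf followed the mean of the other 9 most closely (0.99) and Cxcr2 least (0.78). The libraries are not independent here, since each mouse gave 3 and all genes of a library share its depth, so these values are descriptions.

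Ranked by r with the mean of the 10 among 12833 genes measured in all 3 populations, the 5 most alike were Ifitm6 (0.96), Cd177 (0.96), Slfn4 (0.95), Slpi (0.93) and Ly6a2 (0.93), over 24 libraries. Cd177 encodes a neutrophil surface protein and Slpi a secreted inhibitor of neutrophil proteases. In all, 54 genes lay above 0.8 and 11 above 0.9. Cd177 was at 34.7, 81.8, 15.7 and 345 CPM in HSC of deleted mice 1 to 4, against 124, 71.4, 15.9 and 53.8 CPM in HSC of controls, so it too was highest in deleted mouse 4. Ly6g, whose product GR1 antibodies bind, reached 24.7 CPM in HSC, 22 CPM in MPP and 6.19 CPM in HPC-1, each in deleted mouse 4, and had 0 reads in MPP of control mouse 3.

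The question of whether Phf6 deletion altered these RNAs was addressed within each population. None of the 10 passed the test in any population, although all 10 had a positive log2 fold change, deleted over control, in each. In HSC 0 of 10 were called, beside 0.0073% of 13693 genes tested. In MPP 0 of 10 were called, beside 0.029% of 13806 genes, and in HPC-1 0 of 10, beside 0.0647% of 13907 genes (edgeR quasi-likelihood test, Benjamini-Hochberg adjusted p under 0.05). At an unadjusted p under 0.05 the count was also 0 of 10 in each population. Over all genes that share was 3.86% for HSC, 8.09% for MPP and 4.99% for HPC-1. DESeq2 called 0 of 10 in each, beside 14 genes for HSC, 95 for MPP and 68 for HPC-1.

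In HSC the median log2 fold change of the 10 was 0.58, beside 0.01 over all genes tested. Positive values, 10 of 10 here, were found for 50.8% of genes for HSC, 51.9% for MPP and 49.3% for HPC-1. As the 10 genes moved together, they are not separate observations of this sign. The HSC values ran from S100a8 at 0.19 ± 0.66 to Cxcr2 at 1.43 ± 0.67, whose 95% interval was -0.04 to 2.9 (SE, edgeR adjusted p = 0.998 for each of the 10). Mmp9 was next at 1.20 ± 1.07 and Ltf at 0.82 ± 0.86.

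In MPP the median was 1.29, beside 0.02 over all genes, and the range was narrow, from Camp at 0.91 ± 0.90 to Ngp at 1.63 ± 0.84 (SE, edgeR adjusted p = 0.736 and 0.624). Chil3, at 1.55 ± 0.74, had the lowest adjusted p, 0.617, with a 95% interval of -0.07 to 3.18. Its levels were 319, 169, 83.9 and 1161 CPM in deleted MPP, against 205, 170, 34.2 and 180 CPM in control MPP, so the groups overlapped. In HPC-1 the median was 0.49, beside 0 over all genes, from Cxcr2 at 0.28 ± 0.43 to S100a8 at 0.76 ± 0.68 (edgeR adjusted p = 0.999 for each of the 10). The 95% intervals of all 10 genes included 0 in each population.

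These medians rested on deleted mouse 4. Without its library they were -0.30 for HSC, -0.19 for MPP and -0.32 for HPC-1. Without control mouse 3 they were 0.22, 0.92 and 0.20. With litter as a block the medians were 0.61 for HSC, 1.09 for MPP and 0.12 for HPC-1, and 0 of 10 were called in each.

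**Figure D4:**
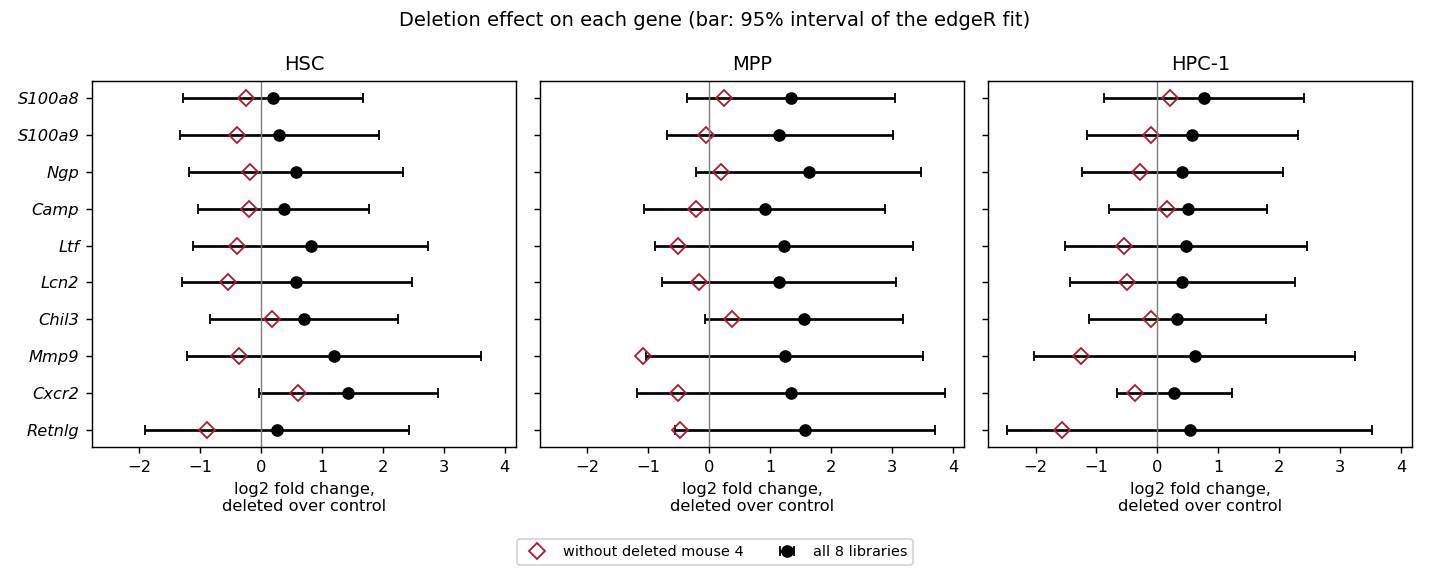
For each gene and population the filled point and bar give the log2 fold change, deleted over control, with its 95% interval from all 8 libraries, and the open diamond the value without deleted mouse 4. Every filled point lies right of 0, every bar crosses 0, and most diamonds lie left of 0, as for Retnlg in HPC-1 at -1.57.

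Set against its own littermate, each deleted mouse gave a different answer. In HSC the deleted mouse had the higher level for 1, 4, 10 and 10 of the 10 genes in litters 1 to 4, with median log2 ratios of -0.80, -0.11, 1.14 and 2.16. In MPP the counts were 8, 0, 9 and 10, with medians of 0.41, -1.04, 2.15 and 2.63. In HPC-1 they were 4, 2, 4 and 10, with medians of -0.28, -0.33, -0.08 and 1.74. Litter 4 was the only one in which all 10 were higher in the deleted mouse in each population, and litter 2 in MPP had all 10 lower.

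No gene of the 10 was higher in the deleted mouse in 4 of 4 litters in HSC or MPP, a pattern held by 5.96% and 11% of genes tested. In HPC-1 Camp alone was, with log2 ratios of 0.16, 0.06, 0.08 and 1.40, beside 7.84% of genes. Camp was at 73.9, 83.9, 28.2 and 131 CPM in deleted HPC-1 and 66.4, 80.2, 26.6 and 49.9 CPM in control HPC-1. None of the 10 had all 4 deleted libraries above all 4 controls, which 1.57% of genes did for HSC, 2.96% for MPP and 1.58% for HPC-1, and none had all 4 below, which 1.59%, 2.78% and 2.08% of genes did.

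Between populations made with the same kit, MPP had lower values than HSC for all 10 RNAs in the control mice, by differences that did not pass without pairing. All 10 log2 fold changes, MPP over HSC, were negative (49.7% of all genes tested had positive values), with a median of -0.95 beside 0 over all genes, or -0.47 without control mouse 1, and 0 of 10 were called beside 2.75% of 14561 genes. They ran from Retnlg at -1.17 ± 1.11 to Mmp9 at -0.63 ± 1.19 (SE, edgeR adjusted p = 0.795 and 0.930). Since HSC and MPP came from the same mice, the fit with mouse as a block was also made. It called 1 of 10, Lcn2, at -1.33 ± 0.29 (edgeR adjusted p = 0.0271), beside 655 of 14561 genes. S100a9 stood at -1.11 with an edgeR adjusted p of 0.0541.

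Lcn2 was at 52.2, 111, 4.19 and 78.4 CPM in MPP of control mice 1 to 4, against 240, 151, 18.9 and 121 CPM in HSC of the same mice. Each control mouse thus had less Lcn2 RNA in MPP. Of the 10 genes, 9 were lower in MPP in 4 of 4 control mice, beside 17.6% of genes. The exception was Mmp9, which was higher in MPP in mice 3 and 4. The 10 genes moved together across libraries, so this count describes 4 mice and the genes are not separate observations. The median log2 ratio of the 10, MPP over HSC, was -1.63, -0.30, -1.57 and -0.46 in control mice 1 to 4.

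In deleted mice the same contrast had a median of -0.21 beside 0.04 over all genes, with 3 of 10 genes (S100a8, Chil3 and Retnlg) positive, beside 52.9% of genes, and 0 of 10 called beside 7.26% of 14561 genes. The median was -0.75 without deleted mouse 4 and -0.05 without deleted mouse 2. With mouse as a block the median was -0.50 and 0 of 10 were called, beside 1356 of 14561 genes. S100a8 alone stayed positive in that fit, at 0.03 ± 0.30 (SE, edgeR adjusted p = 0.962). Ltf, Lcn2, Mmp9 and Cxcr2 were lower in MPP in 4 of 4 deleted mice, beside 13.5% of genes. Here too the genes moved together and are not separate observations. By mouse, the median log2 ratio was -0.46, -1.45, -0.43 and 0.16 in deleted mice 1 to 4, so the animal with the highest levels was the only one with a positive median. The deletion effect in MPP minus that in HSC had a median of 0.71 over the 10, beside 0.02 over all genes, or 0.18 without control mouse 1 and 0.25 without deleted mouse 4, and called 0 of 10 and 0% of 14561 genes in edgeR. At an unadjusted p under 0.05 there were 0 of 10 and 417 genes (2.86%), and DESeq2 called 2 genes and 0 of 10.

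Other genes of the neutrophil programme, taken from a marker list, moved with the 10 in part. Of 26 such genes measured in all 3 populations, 14 had an r above 0.8 with the mean of the 10, among them Mmp8, the neutrophil collagenase (0.92), Hp, haptoglobin (0.92), and Cebpe, the late granule transcription factor (0.84). The 4 most abundant genes of that list lay below 0.8, with Csf3r, the G-CSF receptor, at 0.20, Anxa1, annexin A1, at 0.70, Padi4, a histone-citrullinating enzyme, at 0.38 and Itgb2, an integrin subunit of leukocytes, at 0.71. Of 27 tested for deletion, 0 passed in HSC, MPP or HPC-1, beside 0.0073%, 0.029% and 0.0647% of all genes. Positive values were found for 24, 23 and 20 of the 27, beside 50.8%, 51.9% and 49.3% of all genes. The list's mean centred log2 CPM was highest in deleted mouse 4 in each population (1.95, 2.20 and 1.34). Whether these signs hold without that mouse was not tested for this list. The list's summed level ran from 521 to 2639 CPM in deleted HSC and 526 to 1547 CPM in control HSC.

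Primary granule and precursor genes followed less closely, with 2 of 11 above 0.8. Elane, neutrophil elastase, was at 0.82 and Mpo, myeloperoxidase, at 0.78, while Srgn, the granule proteoglycan also made by other blood cells, was at -0.09. Single genes of the list varied widely, Mpo running from 18.6 to 444 CPM in HSC and from 33.9 to 471 CPM in MPP. The list's mean centred log2 CPM was also lowest in control mouse 3 and highest in deleted mouse 4 in HSC (-1.63 and 0.96) and MPP (-1.69 and 0.99). Of the early genes, 0 of 11 passed the deletion test in HSC, 0 of 12 in MPP and 0 of 12 in HPC-1. The shares of all genes that passed were 0.0073%, 0.029% and 0.0647%.

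Markers of other cells that could be carried along gave mixed values. Of 9 monocyte and macrophage genes 2 lay above 0.8, Lyz2, a lysozyme of monocytes and neutrophils (0.92), and Ly6c2 (0.86). The monocyte list summed to 827 to 2582 CPM in deleted HSC and 601 to 1404 CPM in control HSC. In MPP it summed to 563 to 2217 CPM in deleted mice and 472 to 858 CPM in controls. The monocyte list's mean centred log2 CPM was lowest in control mouse 3 in HSC (-1.06), MPP (-1.05) and HPC-1 (-0.75). The highest mean was that of deleted mouse 4 in MPP (1.19) and HPC-1 (0.84), but of control mouse 1 in HSC (1.3). Eosinophil and basophil genes had 1 of 10 above 0.8. Their mean was also lowest in control mouse 3 in HSC (-3.04), MPP (-2.34) and HPC-1 (-1.33). It was highest in deleted mouse 1 in HSC (1.7) and MPP (2.19) and in deleted mouse 2 in HPC-1 (0.86). Deleted mouse 4 was at 1.46, 1.46 and 0.06 in the same order of populations. Erythroid (11 genes), B and plasma cell (3), T and NK cell (1) and megakaryocyte (5) lists had 0 above 0.8. The haemoglobin gene Hbb-bs lay at 1.64 to 7.15 CPM in HSC and 1.41 to 7.57 CPM in MPP, while Hbb-bt was not found among the counted genes. The erythroid list summed to 957 to 2146 CPM in HSC, where its most abundant gene, Car2, lay at 890 to 2098 CPM. Igkc, an immunoglobulin light chain, was at 58.7 CPM in MPP of deleted mouse 4, while the median of the MPP libraries was 0.219 CPM. In HSC of the same mouse it was at 0.189 CPM, and its r with the mean of the 10 was 0.21. In HPC-1, made with the other kit, every library held more than 58.7 CPM, from 60.2 to 587 CPM with a median of 228 CPM. The highest of these was deleted mouse 2, and deleted mouse 4 was at 251 CPM. The part of other cells in the levels of the 10 RNAs was not tested.

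Stem and progenitor genes did not follow the 10. Of the 4 that encode the sorted surface proteins, Kit had an r of -0.09, Ly6a (SCA1) 0.20, Slamf1 (CD150) 0.13 and Cd48 0.26. None of the 12 genes of the list lay above 0.8, the highest being Flt3 at 0.44. Their summed level spanned 1.42-fold over the HSC libraries, 1.23-fold over MPP and 1.15-fold over HPC-1. Kit, the receptor used in the sort, was at 514 to 1069 CPM in HSC, 468 to 1148 CPM across MPP and 663 to 959 CPM across HPC-1. Slamf1, which sets HSC apart, was lower in MPP than in HSC, by -5.15 ± 0.71 on the log2 scale in controls and -4.78 ± 0.71 in deleted mice (SE, edgeR adjusted p = 0.000488 and 0.000515).

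**Figure D5:**
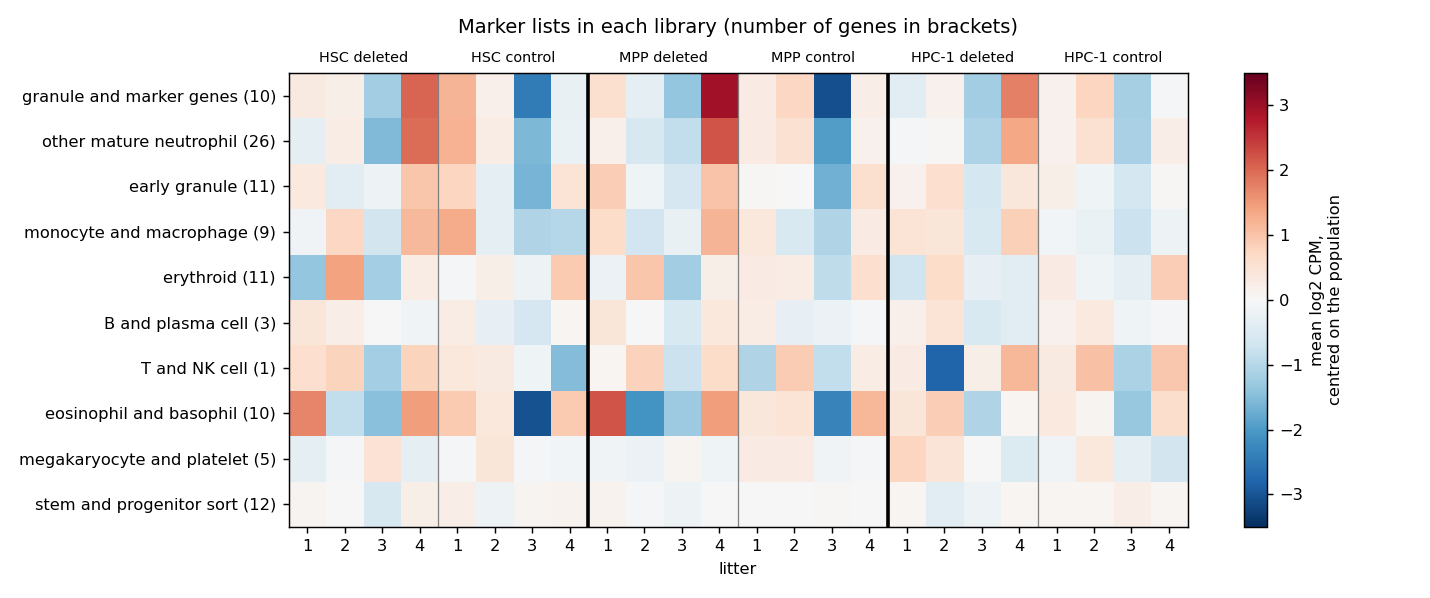
Rows are marker lists with their gene numbers, columns are the 24 libraries by population, genotype and litter with deleted left of control, and colour is the mean log2 CPM of the list centred on its population. The top rows, the 10 genes and the other mature neutrophil genes, reach 2.94 and 2.20 in MPP of deleted mouse 4 and -3.07 and -1.95 in MPP of control mouse 3, while the stem and progenitor row stays between -0.57 and 0.24.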

How the data were processed

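Counts per gene were deposited by the authors, as one table of 24 libraries and as 24 files that hold the same values. Per the submitters' processing notes, reads were demultiplexed with bcl2fastq and counted with featureCounts on mm10; no aligner and no strand option of the counting is named in the notes, labels or headers. Per the labels' protocols, 80 bp paired reads were sequenced. Gene IDs were named from the RefSeq table of GRCm38.p6 (25275 of 27179 matched).

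From these counts, TMM-scaled CPM, RPKM (on the deposited gene lengths) and log2 CPM (prior count 2) were computed. Each population's 8 libraries were fitted with the robust edgeR quasi-likelihood test (edgeR 4.0.16, R 4.3.3) after filterByExpr (minimum count 10, minimum total 15), and all HSC and MPP libraries in 1 fit of 4 groups gave MPP against HSC. P-values were adjusted over all genes tested, with a threshold of 0.05. Alternatives were DESeq2 (1.42.0), its size factors, no filter, a replicate block and leaving out each library. In the joint fit of HSC and MPP each mouse was left out instead. The pipeline was tested on simulated data with a common spread for all genes, which does not show what change could be detected in the 10 genes. The depth of 9658167 to 27786830 reads makes the counting error of reads small beside the spread between mice, except for Cxcr2. Read depth does not measure the sampling of RNA molecules in the low-input HSC and MPP libraries, which was not tested. Libraries of a group come from separate mice. Pairs of libraries of a group differed beyond the counting noise of reads (chi-square per degree of freedom 16.1 to 234 over 36 pairs).

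The replicate number marks the litter in the labels, and HSC, MPP and HPC-1 of a number and genotype come from 1 mouse, so the numbers pair the samples by design. Deviations of the deleted and control mouse of a litter correlated at 0.01 to 0.06 (HSC libraries), 0 to 0.15 (MPP libraries) and 0.08 to 0.38 (HPC-1 libraries), and those of MPP and HSC of a mouse at 0.03 to 0.35 in deleted and 0.12 to 0.28 in control mice. Pairs of unlike number reached 0.06, 0.14 and 0.12 between litters, and 0.08 and 0.01 between mice. Of 8 libraries, 2 (HSC), 4 (MPP) and 4 (HPC-1) correlated best with their own litter number. With their own mouse, 7 of 8 (deleted) and 8 of 8 (control) did.

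The genes named are the 10, the most abundant of each marker list where they bear on a result, and the 5 most like the 10; Mmp8, Hp, Cebpe, Elane, Ly6g, Cd177, Hbb-bs and Igkc were named as well. The 10 genes and the marker lists were chosen with earlier results of these data known.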

Additional observations from a re-analysis of the deposited data

Results flagged for a closer look

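In each group of 4 libraries, the highest or lowest value was set against the group's range, and its gap to the nearest other library, as a share of that range, was compared with Dixon's 95% critical value. This was done for 60 groups, the 10 genes in each population and genotype. For normally distributed values chance flags about 1 in 20 groups, and 13 of 60 passed here. The values set against it were CPM without a log, so that rate need not hold. The 10 genes also move together and are not separate tests. In MPP, deleted mouse 4 stood high for S100a8 (4967 CPM), S100a9 (2189 CPM), Ngp (2659 CPM), Ltf (913 CPM), Lcn2 (376 CPM), Mmp9 (225 CPM) and Retnlg (362 CPM). In HSC the same mouse stood high for Ltf (1178 CPM) and Mmp9 (300 CPM). In HPC-1 it stood high for Mmp9 (92.1 CPM) and Retnlg (84.7 CPM). Control mouse 3 stood low in MPP for S100a8 (74.9 CPM) and Ngp (38.9 CPM).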

How the results depend on the processing

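The count of the 10 genes called was 0 in each deletion comparison, and in the deletion effect in MPP minus that in HSC, under every alternative run. The exception elsewhere was MPP against HSC in controls, where the block of mouse called 1, Lcn2, at -1.33. Counts over all genes depended on the tool. DESeq2 called 14 genes in HSC, 95 in MPP, 68 in HPC-1, 744 for MPP against HSC in controls, 1693 in deleted mice and 2 for the difference of deletion effects. The replicate block called 0 in HSC, 60 in HPC-1 and 655 for MPP against HSC in controls, and no filter called 20 in HPC-1. With 1 library or mouse left out, the counts ran from 0 to 1 in HSC, 2 to 22 in MPP, 1 to 11 in HPC-1, 94 to 843 for MPP against HSC of controls and 608 to 982 for that contrast of deleted mice. The causes were not tested.

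Under the pairing block, values of the 10 turned sign for Cxcr2 in MPP (-0.02), for Mmp9 (-0.36) and Retnlg (-0.24) in HPC-1, for Chil3 (-0.36) and Retnlg (-0.34) in MPP against HSC of deleted mice, and for Mmp9 (-0.64) in the difference of deletion effects. It changed no other call of the 10.

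Leaving out 1 library turned the sign for these genes, with lowest and highest log2 fold changes as follows. In the contrasts that join HSC and MPP, 1 mouse was left out with both its HSC and MPP libraries. Deleted over control in HSC, they were -0.24 and 0.72 for S100a8, -0.39 and 0.75 for S100a9, -0.19 and 1.36 for Ngp, -0.20 and 0.81 for Camp, -0.39 and 1.40 for Ltf, -0.54 and 1.04 for Lcn2, -0.37 and 1.69 for Mmp9, and -0.88 and 1.18 for Retnlg. In MPP they were -0.05 and 1.46 for S100a9, -0.22 and 1.25 for Camp, -0.51 and 1.61 for Ltf, -0.16 and 1.59 for Lcn2, -1.09 and 1.88 for Mmp9, -0.51 and 1.77 for Cxcr2, and -0.48 and 2.16 for Retnlg. In HPC-1 they were -0.10 and 0.90 for S100a9, -0.28 and 0.74 for Ngp, -0.55 and 0.90 for Ltf, -0.50 and 0.75 for Lcn2, -0.10 and 0.63 for Chil3, -1.26 and 1.20 for Mmp9, -0.36 and 0.55 for Cxcr2, and -1.57 and 1.09 for Retnlg. For MPP against HSC in deleted mice they were -0.38 and 0.54 for S100a8, -0.58 and 0.08 for S100a9, -0.74 and 0.20 for Ngp, -0.65 and 0.32 for Chil3, and -0.77 and 0.31 for Retnlg. For the difference of deletion effects they were -0.03 and 0.76 for Camp, -0.16 and 0.71 for Ltf, -0.73 and 0.35 for Mmp9, and -1.11 and 0.25 for Cxcr2. In the 3 deletion comparisons the lowest value was the one without deleted mouse 4 in each case named.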
